A study of Homo sapiens with 8 samples.

Results

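The 8 genes described here encode enzymes of the pentose phosphate pathway and other enzymes that make NADPH or the related cofactor NADH. They are PGD, TKT, TALDO1, ME1, IDH1, MTHFD1, MTHFD2 and ALDH1A1, taken by their GENCODE 44 symbols as 8 of the 58302 genes in the count table. Of the 8, ALDH1A1 makes NADH and MTHFD2 makes mainly NADH. All 8 genes had enough reads to be tested. The libraries came from A549, a cell line of human lung adenocarcinoma, collected 72 h after transfection with an siRNA against the APEX1 transcript (label siAPEX1, n = 4) or with a scramble siRNA (label siCTRL, n = 4). They were made with a small RNA kit that tails the RNA 3′ end, so a protein-coding gene is seen through fragments of its RNA. The study calls the libraries of a group biological replicas, while the labels do not say whether they came from separate cultures, so p-values measure the spread between these libraries, which may in part be technical.

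The oxidative arm of the pentose phosphate pathway oxidizes phosphorylated glucose and yields NADPH, the cofactor that keeps glutathione and thioredoxin reduced and drives lipid synthesis. Its non-oxidative arm exchanges carbon units between sugar phosphates and connects ribose 5-phosphate with glycolysis. Cytosolic malic enzyme, cytosolic isocitrate dehydrogenase and the NADP-dependent folate dehydrogenases are the other main sources of NADPH. A549 cells lack functional KEAP1, the inhibitor of the transcription factor NRF2, and PGD, TKT, TALDO1, ME1 and IDH1 are known NRF2 targets, whereas MTHFD2 and SHMT2 are known targets of ATF4.

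APEX1 itself, the targeted gene, had 51, 61, 64 and 47 counts in the siCTRL libraries against 21150, 19470, 27916 and 20767 in those labelled siAPEX1. A silenced transcript would give fewer reads, but reads of the transfected siRNA cannot be separated here from reads of the transcript. These counts therefore do not show whether the transcript was silenced. The study reports silencing of the APE1 protein in A549 cells by Western blot, which RNA counts do not measure. Every direction below is that of the libraries as labelled. Library totals ran from 1639796 to 1949886 counts under siCTRL and from 1348386 to 1619500 under siAPEX1, and therefore did not overlap. Nuclear protein-coding genes without APEX1 held 15.4% ± 0.296 (SD, n = 4) of the siCTRL counts and 12.2% ± 0.323 (SD, n = 4) of the siAPEX1 counts. Of 8 genes taken as markers of the A549 line, 7 had counts in every library. The summed level of the 8 ran from 730 to 879 CPM (normalised read counts, relative to library totals corrected by TMM factors) under siCTRL and from 673 to 755 under siAPEX1. Of these genes KRT8, KRT18 and KRT19 fell and CDH1, AKR1C2 and AKR1B10 rose, each with an adjusted p of at most 0.05 with TMM factors. The summed level mixes these opposite changes. Of 7 markers of leukocytes, endothelium and fibroblasts, PECAM1 was at 0 in all libraries, and none of the others exceeded 11 counts in a library. The part of library size and of RNA class in the results below was not tested, and fewer cells with an RNA and less of it per cell cannot be told apart in these bulk libraries.

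The 8 genes did not move as one group. TKT rose 1.33-fold and MTHFD2 fell to 0.684 of the siCTRL level, while the changes of PGD, TALDO1, ME1, IDH1, MTHFD1 and ALDH1A1 did not pass an adjusted p of at most 0.05 (edgeR quasi-likelihood test with TMM factors, Benjamini-Hochberg adjustment over 5368 genes). Thus 1 of 8 fell, beside 15.8% of all genes tested, and 1 of 8 rose, beside 15.9%. Scaled by library size only, 6 of 8 fell beside 36.2% of all genes, and 0 rose beside 6.33%, so that TKT was no longer called. None fell by 1 or more on the log2 scale, which 5.68% of all genes tested did together with the adjusted p. With DESeq2 0 of the 8 fell, beside 5.9% of its 7591 genes with an adjusted p, and 1, TKT, rose, beside 5.98%. At an unadjusted p under 0.05 the lower genes were MTHFD2 and MTHFD1 in edgeR, 2 of 8 beside 20.5% of all genes, and MTHFD2 in DESeq2, 1 of 8 beside 11.5%. The median log2 fold change was −0.17 over the 8 genes and −0.03 over the 4857 nuclear protein-coding genes tested. The groups did not overlap, with siAPEX1 lower, for 1 of the 8 genes, MTHFD2, against 14.9% of all genes tested.

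**Figure D1:**
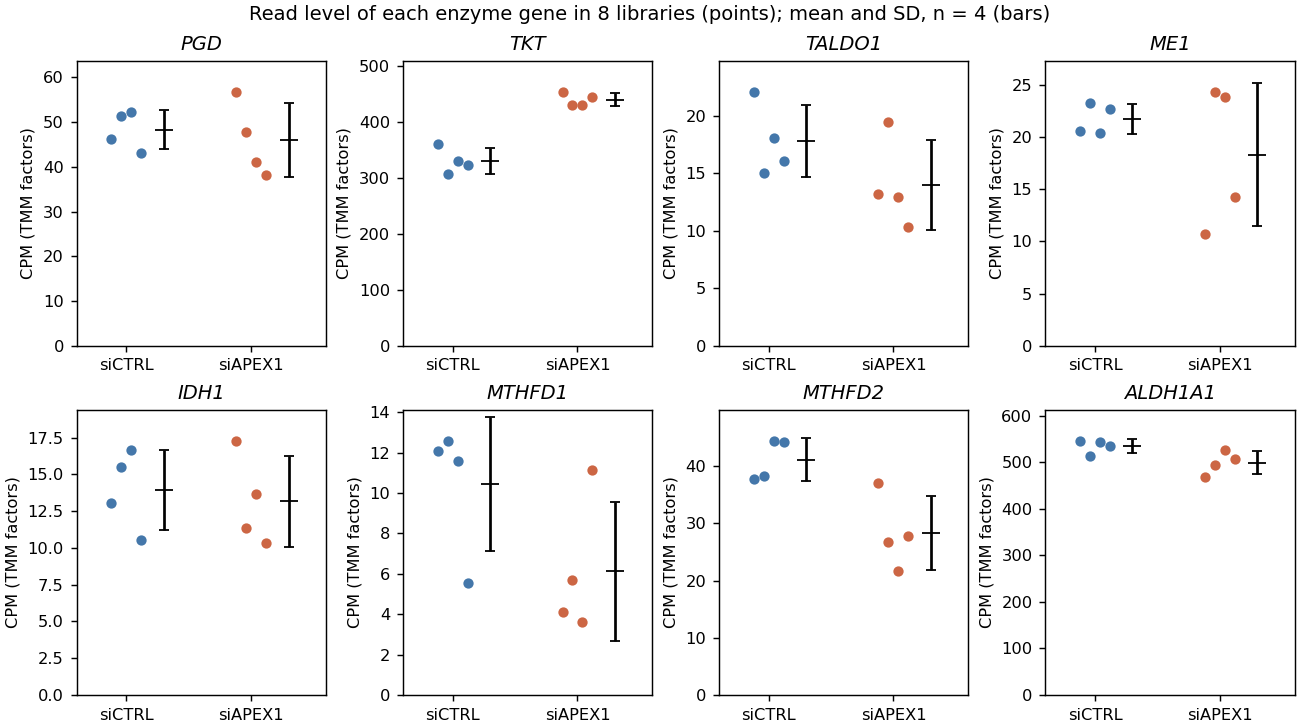
CPM of each of the 8 genes (y axis from 0, normalised read count with TMM factors) in the 4 siCTRL and 4 siAPEX1 libraries (points), with the mean and SD beside them. TKT lies higher in all 4 siAPEX1 libraries, MTHFD2 lies lower in all 4, and the points of the other 6 genes overlap between the groups.

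Per kilobase of merged exons, ALDH1A1 was the most highly read of the 8 in the siCTRL libraries, with a mean of 188 CPM per kb. TKT followed with 34.7 CPM per kb and PGD with 14.5. ME1 (6.51 CPM per kb) and TALDO1 (6.13) were next, and their libraries overlapped. MTHFD2 (3.60) and IDH1 (2.97) also overlapped each other, and MTHFD1 was lowest at 0.602 CPM per kb. The merged exons of MTHFD1 span 17357 bases over 34 transcripts, those of MTHFD2 11443 over 21 and those of TKT 9502 over 13. These lengths lower their values per length beside ALDH1A1 (2840 bases) and PGD (3333). Before division by length, MTHFD2 had a siCTRL mean of 41.2 CPM and PGD 48.3. The order therefore depends in part on the annotated length. In the siAPEX1 libraries the order was the same except that IDH1 (2.80) stood above MTHFD2 (2.47), again with overlapping libraries. ALDH1A1 and TKT together held most of the reads of the 8 genes, ALDH1A1 52.5% and TKT 32.4% under siCTRL, and 47.0% and 41.2% under siAPEX1.

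TKT encodes transketolase, which moves 2-carbon units between sugar phosphates in the non-oxidative arm. TKT (ENSG00000163931, GRCh38 chromosome 3 from 53224712 to 53256052, minus strand) had 717, 632, 710 and 583 counts in the siCTRL libraries. In the siAPEX1 libraries it had 551, 529, 596 and 560. On the CPM scale the siCTRL libraries lay between 306.1 and 360.5 with a mean of 329.6 ± 22.8 (SD, n = 4), and the siAPEX1 libraries between 429.4 and 453.7 with a mean of 439 ± 11.98 (SD, n = 4), and all 4 siAPEX1 libraries lay above all 4 siCTRL libraries. The change was 0.41 on the log2 scale (SE 0.0876, adjusted p = 2.45e-04, edgeR). This rise depended on the scaling of the libraries, since with library size only, which moves the median of all genes to −0.34, the log2 fold change of TKT was 0.07 (adjusted p = 0.544). The related genes TKTL1 and TKTL2 had 0 counts in every library, which by counting alone allows up to 3 counts each. Reads were thus not listed under either of these close relatives.

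TALDO1 encodes transaldolase, which moves 3-carbon units beside transketolase in the same arm. TALDO1 (ENSG00000177156, chromosome 11 from 747415 to 765012, plus strand) had 44, 31, 39 and 29 counts under siCTRL and 16, 24, 18 and 13 under siAPEX1. Its level was 17.8 ± 3.14 CPM (SD, n = 4) against 14.0 ± 3.88 (SD, n = 4), and the groups overlapped because of siAPEX1 replicate 2. The log2 fold change of −0.35 had a 95% interval from −0.77 to 0.06 (adjusted p = 0.215, edgeR), so at these counts neither an unchanged level nor a fall by 0.77 on the log2 scale could be set aside.

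PGD encodes 6-phosphogluconate dehydrogenase, the enzyme of the second NADPH-yielding step of the oxidative arm. PGD (ENSG00000142657, chromosome 1 from 10398592 to 10420511, plus strand) had 92, 106, 113 and 78 counts in the siCTRL libraries and 69, 59, 57 and 48 in those labelled siAPEX1. After scaling, 48.3 ± 4.33 CPM (SD, n = 4) stood against 46.0 ± 8.30 (SD, n = 4), with overlapping libraries. The log2 fold change was −0.08 (95% interval −0.34 to 0.18, adjusted p = 0.686, edgeR). The enzyme that acts directly before it, 6-phosphogluconolactonase (PGLS), was at −0.84 on the log2 scale (adjusted p = 0.0581) with at most 23 counts per library.

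ME1 encodes the cytosolic malic enzyme, which turns malate into pyruvate and yields NADPH. ME1 (ENSG00000065833, chromosome 6 from 83210402 to 83431051, minus strand) had 41, 48, 44 and 41 counts under siCTRL and 13, 30, 33 and 18 under siAPEX1. The siCTRL libraries lay close together at 21.7 ± 1.44 CPM (SD, n = 4), whereas the siAPEX1 libraries spread over 18.3 ± 6.84 (SD, n = 4), with replicates 2 and 3 above every siCTRL library and replicates 1 and 4 below. The coefficient of variation was 37.4% there, against 20.6% from counting alone. On the log2 scale the change was −0.23 (95% interval −0.62 to 0.15, adjusted p = 0.401, edgeR). For the mitochondrial enzyme ME2 the change was −0.29 on the log2 scale (adjusted p = 0.549).

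IDH1 encodes the cytosolic isocitrate dehydrogenase that yields NADPH. IDH1 (ENSG00000138413, chromosome 2 from 208236229 to 208266074, minus strand) had 26, 32, 36 and 19 counts in the siCTRL libraries against 21, 14, 19 and 13 in the siAPEX1 libraries. Scaled levels were 13.9 ± 2.73 and 13.2 ± 3.09 CPM (SD, n = 4 each) and overlapped, with a log2 fold change of −0.10 (95% interval −0.54 to 0.34, adjusted p = 0.784, edgeR). The mitochondrial NADPH enzyme IDH2 had 26, 20, 21 and 17 counts against 6, 5, 12 and 7, and its log2 fold change was −0.82 (SE 0.289, adjusted p = 0.0252, edgeR). IDH2 lost this call with DESeq2 (adjusted p = 0.205) and without any one of siCTRL replicate 1 or siAPEX1 replicates 1, 2 and 4, with adjusted p-values from 0.0712 to 0.105. The ratio of IDH1 to IDH2 counts ran from 1 to 1.71 under siCTRL and from 1.58 to 3.5 under siAPEX1, so the groups overlapped. A two-sided exact permutation test of this ratio gave p = 0.0857, unadjusted. It was 1 of 3 such pairs, and the same test was also run on the 7 ratios to TKT given below. IDH3G, a subunit of the NAD-dependent enzyme of the citric acid cycle, was also called lower (log2 fold change −0.80, adjusted p = 0.0434, edgeR). IDH3G lost the call with DESeq2 (adjusted p = 0.270), protein-coding genes alone (0.0586), the replicate block (0.0585) and all genes of at least 1 count (0.0530). It also lost the call without either of siCTRL replicates 1 and 2, or without any one of siAPEX1 replicates 1, 2, 3 and 4. The adjusted p-values of these fits ran from 0.0587 to 0.187. Its partner subunits IDH3A and IDH3B had log2 fold changes of 0.18 and 0.27 that did not pass (adjusted p = 0.689 and 0.506). Both IDH2 and IDH3G met the minimum of reads for the test through their siCTRL libraries, where they were higher.

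MTHFD2 encodes the mitochondrial methylenetetrahydrofolate dehydrogenase and cyclohydrolase, which passes serine-derived carbon on towards formate. MTHFD2 (ENSG00000065911, chromosome 2 from 74186172 to 74217565, plus strand) had 75, 79, 96 and 80 counts in the siCTRL libraries. In the siAPEX1 libraries it had 45, 33, 30 and 35. The levels were 41.2 ± 3.70 CPM (SD, n = 4) and 28.3 ± 6.42 (SD, n = 4), and the highest siAPEX1 library, at 37.1 CPM, lay just under the lowest siCTRL library, at 37.7. The log2 fold change was −0.55 (SE 0.151, adjusted p = 0.00419, edgeR). MTHFD2 did not pass with DESeq2 (log2 fold change −0.56, adjusted p = 0.0664) nor without siAPEX1 replicate 3 (−0.40, adjusted p = 0.0587).

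SHMT2, the mitochondrial serine hydroxymethyltransferase that acts directly before MTHFD2, was called lower. SHMT2 had 23, 30, 27 and 15 counts against 8, 5, 8 and 10, without overlap, and a log2 fold change of −0.95 (SE 0.281, adjusted p = 0.00768, edgeR). It met the minimum of reads for the test through its siCTRL libraries, where it was higher. Its call is therefore not read as support for the fall of MTHFD2. With DESeq2 the adjusted p of SHMT2 was 0.116, and when each library was left out in turn it stayed at 0.0439 or lower. MTHFD1L, which releases formate in the mitochondrion after MTHFD2, was at −0.12 on the log2 scale (adjusted p = 0.818).

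MTHFD1 encodes the cytosolic enzyme with 3 activities that receives formate and also holds an NADP-dependent dehydrogenase. MTHFD1 (ENSG00000100714, chromosome 14 from 64388031 to 64463457, plus strand) had 24, 26, 25 and 10 counts under siCTRL and 5, 7, 5 and 14 under siAPEX1. In counts, replicate 4 of each group lay inside the range of the other group, and the groups overlapped. The level was 10.4 ± 3.30 CPM against 6.13 ± 3.44 (SD, n = 4 each), and the log2 fold change of −0.79 (SE 0.316) had an adjusted p of 0.0513 (edgeR) and did not pass. Without siCTRL replicate 4 MTHFD1 passed (−0.98, adjusted p = 0.0117), and without siAPEX1 replicate 4 it passed with −1.22 (adjusted p = 0.0100), while with DESeq2 its adjusted p was 0.285. Exons of MTHFD1 overlap exons of ZBTB25 on the opposite strand, which had 67 counts in all libraries together. The strand setting of the counting is not given in the sources used here, and what share of the MTHFD1 reads lies in these exons was not tested. In the purine enzymes that use formyl folate downstream, GART (log2 fold change 0.42, adjusted p = 0.275) and ATIC (−0.42, adjusted p = 0.123) did not pass. The ratio of MTHFD2 to MTHFD1 counts ran from 3.04 to 8 under siCTRL and from 2.5 to 9 under siAPEX1, with overlap (two-sided exact permutation test, p = 0.6, unadjusted).

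ALDH1A1 encodes retinaldehyde dehydrogenase 1, an abundant cytosolic NAD-dependent enzyme that oxidizes retinal and other aldehydes. ALDH1A1 (ENSG00000165092, chromosome 9 from 72900671 to 73080442, minus strand) had 1087, 1059, 1175 and 968 counts in the siCTRL libraries and 570, 610, 731 and 638 in those labelled siAPEX1. With TMM factors these counts gave 535 ± 15.4 CPM and 499.6 ± 24.0 (SD, n = 4 each), and the groups overlapped. The log2 fold change was −0.10 (95% interval −0.27 to 0.07, adjusted p = 0.416, edgeR), and with library size only it was −0.44 (adjusted p = 5.08e-05). Among its relatives ALDH3A1, an aldehyde dehydrogenase that can use NADP, fell from 45.6 ± 5.08 to 30.7 ± 2.54 CPM (SD, n = 4 each), a log2 fold change of −0.57 (SE 0.139, adjusted p = 0.00144, edgeR). The ratio of ALDH1A1 to ALDH3A1 counts ran from 10.6 to 13.7 under siCTRL and from 14.5 to 18.7 under siAPEX1. ALDH3A1 was named because it fell in these same libraries, so this ratio is a description. Its two-sided exact permutation test (p = 0.0286, unadjusted, the smallest value possible with these 8 libraries) is therefore not used. The share of all genes without overlap in a ratio to ALDH3A1 was not computed. ALDH2, the mitochondrial acetaldehyde dehydrogenase, rose from 16.6 ± 1.46 to 29.6 ± 3.84 CPM (SD, n = 4 each), a log2 fold change of 0.83 (SE 0.170, adjusted p = 1.52e-04, edgeR). ALDH2 kept its direction and call under all scalings tried, with 0.49 (adjusted p = 0.0184) under library size only.

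**Figure D2:**
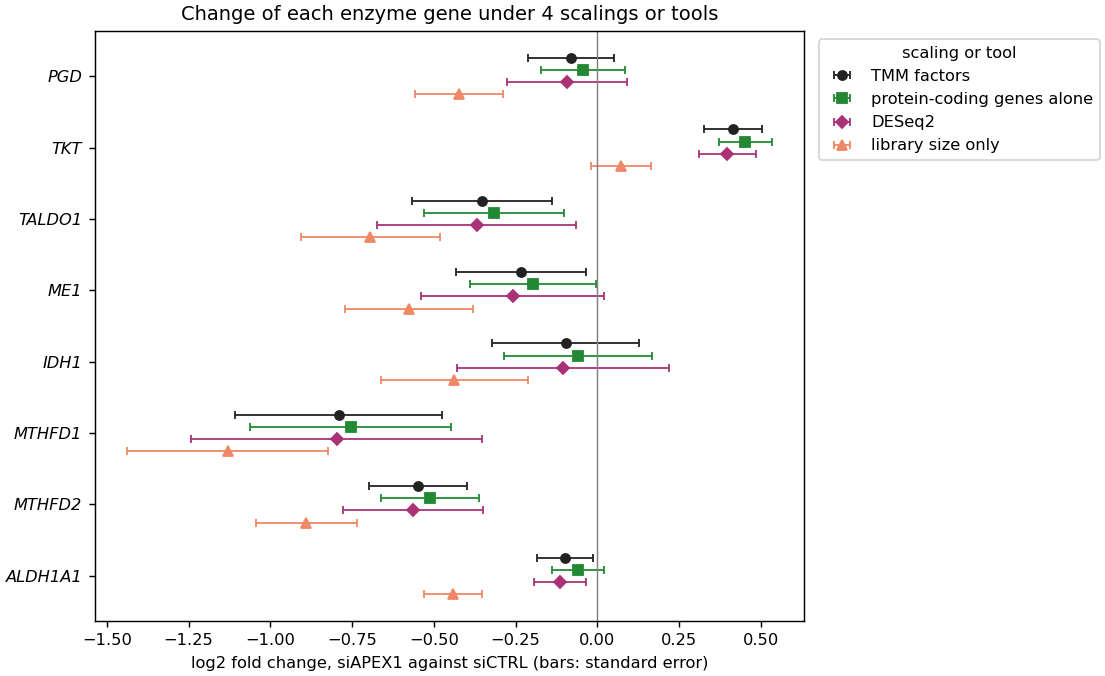
Log2 fold change of each of the 8 genes, siAPEX1 against siCTRL, with its standard error (x axis), with edgeR and TMM factors, edgeR on protein-coding genes alone, DESeq2, and edgeR with library size only. The last shifts every gene to the left, which brings TKT to 0.07 and ALDH1A1 to −0.44.

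Because the scaling moved all 8 genes, their counts were also set against each other within each library, where no scaling enters. The 7 ratios to TKT were chosen after the values were seen. They share a denominator that itself rose, so they are given as a description, and the permutation p-values computed for them are not used. The ratio of ALDH1A1 to TKT fell from between 1.52 and 1.68 to between 1.03 and 1.23 counts per TKT count. That of MTHFD2 fell from between 0.105 and 0.137 to between 0.0503 and 0.0817, and that of PGD from between 0.128 and 0.168 to between 0.0857 and 0.125. The ratios of TALDO1 and ME1 to TKT also did not overlap, whereas those of IDH1 and MTHFD1 did. Thus 5 of 7 did not overlap, beside 34.7% of the other genes tested when each was divided by TKT in the same way. On the log2 scale the differences ran from −0.50 for PGD to −1.26 for MTHFD1. A ratio shows that 2 genes changed unequally and not which of them changed. As a share of all nuclear protein-coding counts without APEX1, the 8 genes held 0.726% ± 0.0230 under siCTRL and 0.759% ± 0.00574 under siAPEX1 (SD, n = 4 each). Without TKT the other 7 held 0.491% ± 0.0120 and 0.446% ± 0.0106 (SD, n = 4 each), so the sum moved in opposite directions with and without this gene. TKT was left out after its rise was seen, and ALDH1A1 held most of the remaining reads. The lower sum is therefore a description and not a change shared by the 7 genes.

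**Figure D3:**
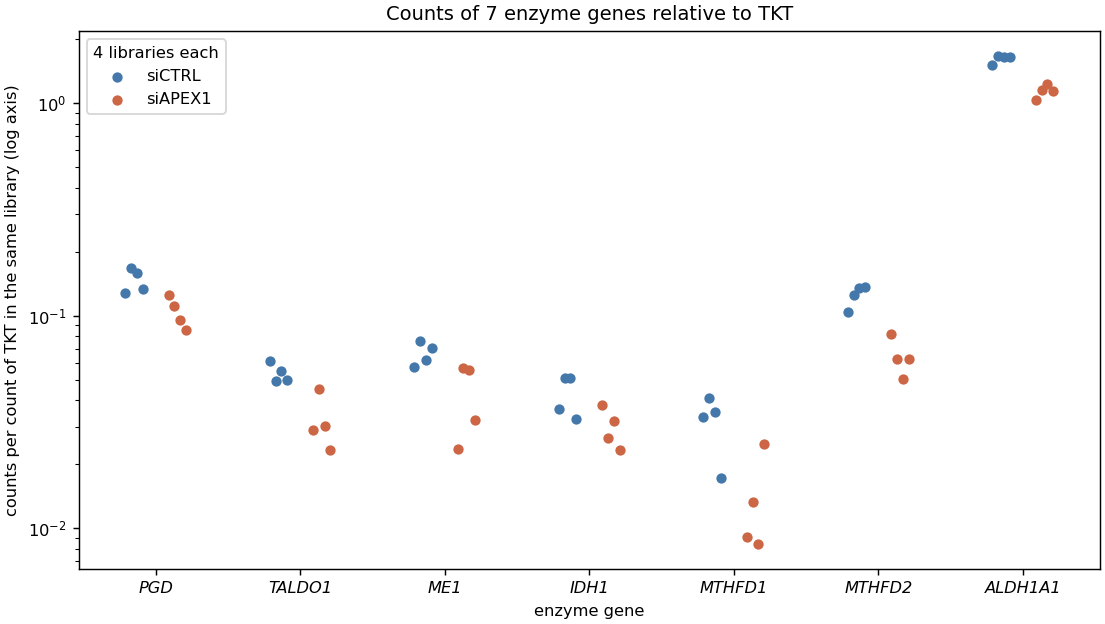
Counts of 7 enzyme genes divided by the counts of TKT in the same library (y axis, log scale), for 4 siCTRL and 4 siAPEX1 libraries per gene (points). The siAPEX1 ratios lie lower, without overlap for PGD, TALDO1, ME1, MTHFD2 and ALDH1A1 and with overlap for IDH1 and MTHFD1.

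A list of 41 further enzymes of these routes gave 17 genes with enough reads to be tested. Of these 4 fell (IDH2, IDH3G, SHMT2 and ALDH3A1), 1 rose (ALDH2) and 12 did not pass the adjusted p, with a median log2 fold change of −0.29. These 4 and 1 of 17 stand beside 15.8% lower and 15.9% higher of all genes tested. IDH2, IDH3G and SHMT2 met the minimum of reads for the test through their siCTRL libraries, where they were higher. Genes with few reads that enter this way are those high in siCTRL. The 4 lower and the median of −0.29 therefore describe the tested genes only, and nothing is concluded from them about the list. With DESeq2 1 of the list, ALDH3A1, fell beside 5.9% of all genes, and with library size only 8 fell beside 36.2%. The 4 that fell belong to 3 classes of the list and include enzymes of the cytosol and of the mitochondrion. None of the 5 further genes of the non-oxidative arm had enough reads, and RPIA and RPE, which interconvert the pentose phosphates, had at most 7 and 15 counts in a library. TKTL1, TKTL2 and the folate enzyme ALDH1L1 had 0 counts in every library. NADK, which makes NADP from NAD, had at most 8 counts and was not tested.

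**Figure D4:**
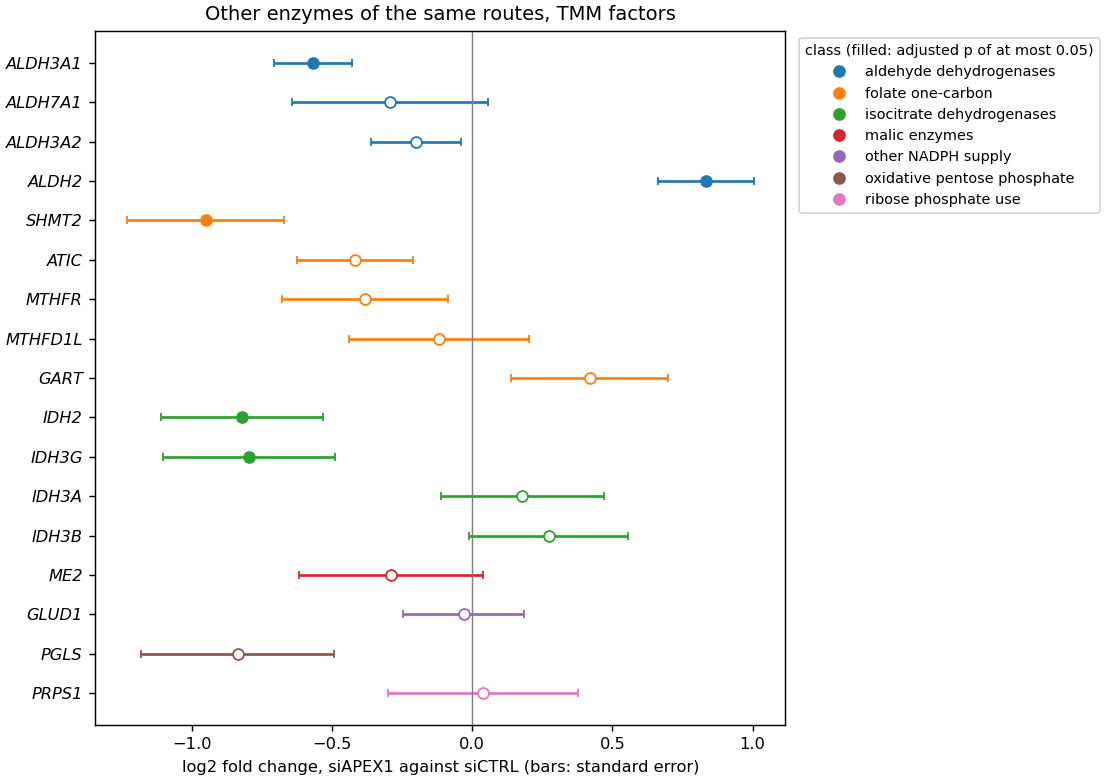
Log2 fold change with its standard error (x axis) of the 17 further enzymes that could be tested, coloured by class, with filled points for an adjusted p of at most 0.05 (edgeR, TMM factors). Filled points lie to the left of 0 for 4 genes and to the right for ALDH2.

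Since several of these genes are NRF2 targets, the RefSeq promoter windows (GRCh38.p14, from 250 bases before to 50 after the start site) were searched on both strands for TGANNNNGC, the core letters of the antioxidant response element that NRF2 binds. All 8 genes had a window, and 6 held the letters, beside 47.1% of the 27305 genes and 41.8% of the 35116 windows of the table. TKT, the gene that rose, and TALDO1 had no match in their window, which says nothing of elements elsewhere. The stretches below show 1 match each of the NADPH enzymes ME1 and PGD and the match of MTHFD2, the gene that fell, with the core in capitals on the strand that carries it. They lie at chr6:83431170-83431198 (minus strand, the gene strand), chr1:10398853-10398881 (minus strand, opposite to PGD) and chr2:74198611-74198639 (minus strand, opposite to MTHFD2).
ME1: tctcctgccaTGACTCAGCgcttctcgca
PGD: agcacctagaTGACATTGCcccggcgagg
MTHFD2: accgcgccggTGACTGCGCcgggagggaa
Relative to the RefSeq start site, the cores are centred at −133 bases in ME1, −197 in PGD and 10 in MTHFD2. A match of these letters is a description of the reference sequence, and binding was not measured here.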

How the data were processed

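RNA-seq of 8 libraries of A549 cells was used. Per the labels and the methods of the study, the authors trimmed the reads with cutadapt, aligned them to GRCh38 with STAR 2.5.3a and deposited the counts of reads per Ensembl gene, whole numbers without normalization. The annotation release and strand setting are not given in the sources used here. The gene counting mode of STAR leaves out reads that map to several places or overlap several genes.

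Of 58302 identifiers 57532 matched GENCODE 44. Counts were tested with edgeR 4.0.16 (R 4.3.3) by TMM factors, filterByExpr (minimum count 10, total 15), its quasi-likelihood test and p-values adjusted by Benjamini-Hochberg over 5368 genes, with 97.5% to 98.1% of each library. The common biological coefficient of variation was 0.0832. SE is the absolute log2 fold change divided by the square root of F, and 95% intervals are normal intervals with this SE. CPM use the TMM factors. Thresholds were an absolute log2 fold change of 1 and an adjusted p of 0.05. A fold threshold of 0.75 was an alternative. Replicates of a group all differed by more than sampling noise. DESeq2 1.42.0, other scalings and filters, a replicate block and leaving out each library were alternatives. The programs were tested on simulated data.

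The 8 genes and the list of further enzymes were chosen with earlier results of these data known, and 1 further enzyme is not reported here. The genes named are the 8, the enzymes of the list with an adjusted p of at most 0.05 or next to one of the 8, APEX1, and the 3 genes most like the most abundant of the 8. Intervals and count limits cover counting error or replicate spread only.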

Additional observations from a re-analysis of the deposited data

Results flagged for a closer look

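In 50 groups of 4 libraries (the 8 genes and the 17 further enzymes tested, in siCTRL and siAPEX1), 2 held a library far from the other three, where chance alone flags about 5% of groups. MTHFD1 in siCTRL replicate 4 had 5.53 CPM on 10 counts, while the other siCTRL libraries lay between 11.6 and 12.6. Without that library MTHFD1 passed the adjusted p, with a log2 fold change of −0.98. IDH2 in siCTRL replicate 1 had 13.1 CPM on 26 counts, against 9.41 to 9.73 in the others, and without it the log2 fold change of IDH2 was −0.70 (adjusted p = 0.0868, edgeR). The reason for either value was not tested.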

How the results depend on the processing

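Scaling by library size only changed most. It gave 6 of the 8 genes lower past the adjusted p and 0 higher, 1 past both thresholds (MTHFD1), and 8 of the further enzymes lower, with 36.2% of all genes tested lower. The number of the 8 genes lower was 2 with upper-quartile factors (16.0% of all genes lower), 2 with all genes of at least 1 count (5.06%) and 0 with DESeq2 (5.90%). For the further enzymes the number lower was 7 with all genes of at least 1 count, 2 where each library had to reach 10 counts (19.4% of all genes lower) and 1 with DESeq2. With all genes of at least 1 count 2 further enzymes were higher, beside 703 of 22272 genes. Leaving out each library gave 0 to 2 of the 8 genes lower, 0 to 1 past both thresholds, and 2 to 5 further enzymes lower, the lowest without siCTRL replicate 1. In these fits 12.2% to 14.8% of all genes tested were lower. The share of all genes past both thresholds was not computed for them, nor for library size only. The log2 fold change of PGD (−0.17 to 0.022) turned to 8.8e-05 without siAPEX1 replicate 3 and 0.0220 without replicate 4. That of IDH1 (−0.22 to 0.026) turned to 0.0032 without siCTRL replicate 3 and 0.0258 without siAPEX1 replicate 4. The cause was not tested. TKT had log2 fold changes of 0.38 to 0.46 without any one library and lost its call with library size only, and in no other alternative. MTHFD2 was lower in all 16 alternatives and passed in 14. MTHFD1 could not be fitted with at least 10 counts in every library. With the replicate block 1 of the 8 genes was lower (MTHFD2, −0.55, adjusted p = 0.0113) and 1 higher, and 3 further enzymes were lower. In that fit 14.7% of all genes tested were lower, and 806 of 5368 were higher. Same-numbered libraries did not deviate together (correlations from −0.0373 to −0.00348), so the numbers were not read as pairs.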

Other observations

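Genes of the list with too few reads for the filter were tested when all genes with at least 1 count were kept, and those named here were chosen after their values were seen. ALDH1A3 (13, 22, 12 and 7 counts under siCTRL, 2, 2, 2 and 5 under siAPEX1) was at −1.70 on the log2 scale (adjusted p = 0.00250, edgeR), and fitted values of genes with so few counts depend on the prior count. ALDH9A1 (−1.65, adjusted p = 0.0118) and ALDH1B1 (−1.58, adjusted p = 0.0198) were lower too. The libraries of these 3 genes overlapped between the groups. Without overlap, lower values were also found for ALDH1L2 (−1.70, adjusted p = 0.0475), the mitochondrial enzyme that oxidizes formyl folate and yields NADPH, with 8, 4, 8 and 10 counts against 2, 2, 1 and 1. MTHFD2L, the relative of MTHFD2, stood in the other direction, with 4, 5, 3 and 9 counts against 6, 9, 14 and 7 and a log2 fold change of 1.31 (adjusted p = 0.0179), again with overlapping libraries. With DESeq2 the adjusted p was 0.0717 for ALDH1A3, 0.120 for ALDH9A1 and 0.0925 for MTHFD2L, and none was given for ALDH1B1 and ALDH1L2.

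The genes whose log2 CPM followed that of ALDH1A1 most closely over the 8 libraries were ATP5MF (Pearson r = 0.976), SYVN1 (0.947) and ACADVL (0.935), out of 5360 compared. These libraries share their group, so the values describe likeness only.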
